A study of Mus musculus with 105 samples.

Results

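Igf2, H19, Cdkn1c, Kcnq1ot1, Phlda2, Igf2r, Airn and Plagl1 are 8 imprinted genes of mouse, and they were chosen by name, from the Igf2-H19, Kcnq1 and Igf2r clusters and the Plagl1 locus, out of 52016 genes in the bulk count tables. All 8 were found in the bulk tables and in the single-cell allele tables. The series followed female mouse embryonic stem cells (mESCs) through the first days of differentiation, after withdrawal of 2i (a Gsk3 and a MEK inhibitor) and leukemia inhibitory factor (Lif), to study the onset of X inactivation. TX1072 is an F1 hybrid line of C57BL6/J (B6) and Cast/EiJ (Cast), in which a doxycycline-responsive promoter lies before the Xist copy of the B6 chromosome and Rosa26 holds rtTA. TXΔXicB6 and TXΔXicCast are each 1 clone made from TX1072 with a deletion around the Xist locus, on the B6 or on the Cast X chromosome. The deletion takes in Xist, so TXΔXicB6 lacks the copy with the doxycycline-responsive promoter and TXΔXicCast keeps it. Each line was sampled in bulk on days 0, 1, 2, 3 and 4 with 3 replicates a day, which gave 15 libraries of each line and 45 in all. TX1072 was also profiled as single cells on the same days, with 1 culture a day and hence no test between days.

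In an imprinted gene the copy from 1 parent is active and the other is kept silent, usually by DNA methylation that was set in the egg or the sperm. As background, Igf2, Kcnq1ot1, Airn and Plagl1 are known as paternally expressed, and H19, Cdkn1c, Phlda2 and Igf2r as maternally expressed. The noncoding RNAs Kcnq1ot1 and Airn silence their clusters in cis, Igf2 is a fetal growth factor that Igf2r removes by taking it to the lysosome, and many imprinted genes limit or promote the growth of the embryo and placenta. Imprints are known to be lost easily in cultured mESCs, in female lines above all. Which strain was the mother of TX1072 was not given in the sources used here and no reciprocal cross was sampled, so an effect of the strain and an effect of the parent cannot be told apart.

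An allele can be read only where B6 and Cast differ in an exon. On GRCm38 (mm10) with GENCODE vM21, Kcnq1ot1 (chr7:143203458-143296549, minus strand) held 502 such single-nucleotide differences in its single annotated stretch, Plagl1 (chr10:13060504-13131694, plus strand) held 51 in exons, Airn (chr17:12741311-12860136, plus strand) 18, Igf2r (chr17:12682406-12769664, minus strand) 15, H19 (chr7:142575529-142578143, minus strand) 9 and Igf2 (chr7:142650766-142666816, minus strand) 7. Cdkn1c (chr7:143458339-143461050, minus strand) and Phlda2 (chr7:143501545-143503150, minus strand) held 2 each, which is the lowest of the 8 and limits their allele counts. For 4 genes 1 such site each is shown here, since the shares of these genes rest on the most allele-specific reads, on the strand of the transcript, with the base that differs in capitals. They lie in noncoding exons of H19 and Kcnq1ot1 and in coding exons of Igf2r and Plagl1, and are the sites nearest to the transcript's end that have no other difference within the window. Positions count from 1 at the 5′ end of each 29-base window, the B6 base is given first, and the sequences are those of the GENCODE transcripts.
H19, G15A, chr7:142575696-142575724: agtacccacctgtcGtccatctccgtctg
Kcnq1ot1, A15G, chr7:143203748-143203776: tgtgctatttggagAcatgttctttattt
Igf2r, T15C, chr17:12684014-12684042: gacgggcaagaaaaTggccatatcaccac
Plagl1, G15A, chr10:13128850-13128878: gaaccagagccagaGgaagaacaggaaga
At each of these sites the annotated transcript carries the B6 base.

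Bulk depth ranged from 19827011 to 39628784 counts a library in TX1072, from 20246434 to 49962859 in TXΔXicB6 and from 16906263 to 57920260 in TXΔXicCast. A median of 19.9% of the counts could be assigned to an allele in TX1072, 31.4% in TXΔXicB6 and 31.2% in TXΔXicCast. TX1072 was prepared with another kit than the deletion lines, so the tables were tested separately. In TXΔXicB6, 3 libraries stood apart by few allele-specific counts, day 0 replicate 1 with 5.21%, day 2 replicate 1 with 20.3% and day 2 replicate 2 with 9.57%. Their B6 shares over autosomal genes were 50.69, 50.83 and 50.74%, and the first is the lowest of the 15 libraries of the line, whose highest is 50.93%. In TXΔXicCast, day 3 replicate 3 had the lowest allele-specific share of its line, 22.9%, and day 3 of that line enters none of the tested contrasts. The 3 TXΔXicCast libraries of day 0 came from degraded RNA and were fragmented differently, per the study's methods. This cannot be told apart from an effect of day 0 in that line. Levels are given as CPM, counts scaled to the normalised library size, and as RPKM, which also divides by the exon length, where genes are compared with each other.

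The cells left naive pluripotency as labelled. The summed level of 6 naive markers fell from 4685 CPM on day 0 to 408.9 on day 4 in TX1072, and that of 5 formative markers went from 279.3 CPM to a peak of 3093 on day 2 and 924.6 on day 4. Markers of other cell types also moved with the days. The sum of 6 primitive endoderm markers went from 5.62 to 34.0 CPM, led by Dab2, with 1 of the 6 under 1 CPM on day 4. The sum of 5 trophoblast markers was 16.8 CPM on day 0, led by Cdx2 with 10.6 CPM. On day 4 it was 95.3 CPM, of which 88.8 were Eomes, so the other trophoblast markers did not rise as a sum. That of 6 fibroblast markers went from 18.8 to 11.8 CPM, with Col1a1 the most abundant on day 4. Their part in the changes described next was not tested. In bulk RNA, fewer cells of a type and less RNA per cell cannot be told apart.

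The strongest change was that of H19, the maternally expressed noncoding RNA next to Igf2. In TX1072 its level was 3.23, 6.22 and 5.95 CPM in the 3 libraries of day 0, 29.3, 33.5 and 30.9 on day 1, 131.2, 114.9 and 91.05 on day 2, 744.5, 637.8 and 571 on day 3, and 1552, 1452 and 1499 on day 4. The groups of successive days did not overlap. H19 was 296-fold higher on day 4 than on day 0 (log2 change 8.21 ± 0.24 SE, adjusted p = 2e-15, edgeR's quasi-likelihood test with Benjamini-Hochberg adjustment over 18871 genes, n = 3 a group, as for the adjusted p-values of levels below). Per length it stood behind Igf2r and Plagl1 on day 0 (2.09 ± 0.67 RPKM, mean ± SD, n = 3) and was the highest of the 8 on day 4 (610.1 ± 20.4 RPKM), where the next gene, Igf2r, stood at 16.6 ± 1.90 RPKM.

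**Figure D1:**
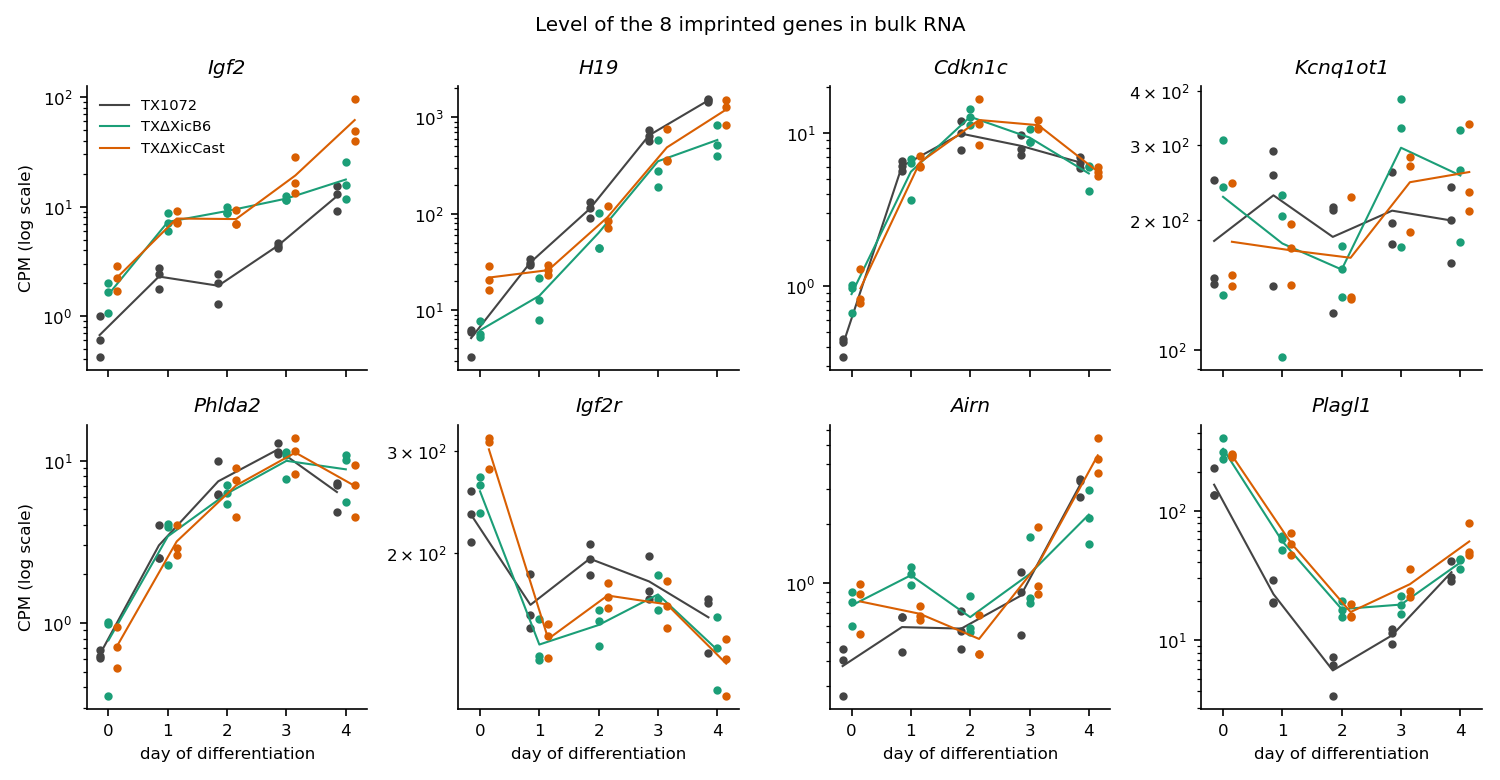
Level of the 8 imprinted genes in bulk RNA, in CPM on a log axis, against the day of differentiation. Each point is 1 library, lines join the means of 3 replicates, and colours mark TX1072 (dark grey), TXΔXicB6 (green) and TXΔXicCast (orange); H19 climbs from 3.23 to 6.22 CPM on day 0 to 1452 to 1552 CPM on day 4 in TX1072, and Plagl1 falls and partly returns.

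Igf2, the growth factor encoded beside H19, was low throughout and also rose. Its 3 TX1072 libraries of day 0 held 0.5965, 0.4171 and 0.9915 CPM, and those of day 4 held 9.07, 12.9 and 15.4 CPM, with no overlap. The change was 19-fold (log2 4.25 ± 0.30, adjusted p = 9.7e-11). Igf2 was the gene of the 8 next above Airn in RPKM on day 0 and on day 4 stood above Airn and Kcnq1ot1, where it overlapped Kcnq1ot1 (2.175 ± 0.554 against 2.147 ± 0.432 RPKM, n = 3).

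Igf2r, the receptor that clears Igf2, moved the other way and by much less. It held 233.2, 256.2 and 208.9 CPM on day 0 and 163.5, 165.9 and 134 CPM on day 4 in TX1072, so that every library of day 4 was below every library of day 0. The fall was 1.51-fold (log2 change −0.59 ± 0.12, adjusted p = 0.0002). Most of it was already there on day 1 (log2 change −0.52 ± 0.12, adjusted p = 0.00106), and against day 1 the day 4 change was −0.07 in TX1072 (adjusted p = 0.626) and −0.03 in TXΔXicB6 (0.827), neither of which passed. On day 2 the change was −0.25 ± 0.12 on the log2 scale with an adjusted p of 0.0736, which became 0.049 with the replicate number as a block and 0.0466 without replicate 3. On day 3 it was −0.39 ± 0.12 (adjusted p = 0.0085), a call lost without replicate 1 (0.0859).

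Airn, the antisense RNA that starts inside Igf2r, was the lowest of the 8 genes per length on each day in TX1072, with values that overlapped those of Igf2 on day 0. This rank is of counts over annotated exons, and in single cells 95.9% of the Airn UMIs were unspliced. In bulk RNA Airn held 7 to 17 counts a library on day 0 and 86 to 110 on day 4. In CPM the libraries of day 0 were at 0.461, 0.265 and 0.406 and those of day 4 at 3.38, 2.73 and 3.29. Airn was 8.12-fold higher on day 4 (log2 change 3.02 ± 0.31, adjusted p = 3.9e-08), and its changes on day 1 (log2 0.62 ± 0.35) and day 2 (0.59 ± 0.35) did not pass the test. The day 3 change (1.20 ± 0.34, adjusted p = 0.00521) passed, and not without replicate 3 (0.106). Airn overlaps Igf2r on the other strand, and the strand setting of the bulk counting was not given in the sources used here, so reads of the shared stretch may be assigned to either.

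In the Kcnq1 cluster the noncoding RNA and the coding genes behaved differently. Kcnq1ot1, which silences the cluster, held between 121.9 and 290.5 CPM over the 15 TX1072 libraries, and no day differed from day 0 (log2 change on day 4 0.16 ± 0.32, adjusted p = 0.701). Its replicates varied more than those of the other abundant genes, with 142.5, 146.7 and 248.3 CPM on day 0. Kcnq1ot1 is antisense to Kcnq1, and with the strand setting not given, reads of their shared stretch may be assigned to either. Cdkn1c, the cell cycle inhibitor p57, held 0.434, 0.341 and 0.451 CPM on day 0 and 6.57, 6.06 and 5.63 CPM on day 1. Its mean was highest on day 2 (9.93 ± 2.13 CPM, n = 3), with libraries that overlapped those of day 3 (8.28 ± 1.32 CPM). On day 4 it stood at 6.44 ± 0.50 CPM. The change was 14.7-fold on day 1 (log2 3.88 ± 0.23, adjusted p = 3.1e-11), 24-fold on day 2 and 15.6-fold on day 4, and against day 1 the day 4 change was 0.08 on the log2 scale and did not pass (adjusted p = 0.715). Phlda2, which limits placental growth, held 0.624, 0.607 and 0.676 CPM on day 0, peaked on day 3 with 11.22, 10.98 and 12.82 CPM, and held 4.84, 7.11 and 7.25 CPM on day 4. It was 18.3-fold higher on day 3 than on day 0 (log2 4.20 ± 0.27, adjusted p = 3.5e-11) and 10.1-fold higher on day 4.

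Plagl1, a zinc finger transcription factor known to regulate other imprinted genes, was the only one of the 8 that fell strongly. Its 3 libraries held 132, 132.9 and 212.4 CPM on day 0, 19.2, 19.5 and 29.2 CPM on day 1, 6.39, 3.68 and 7.38 CPM on day 2, 9.32, 12.1 and 11.2 CPM on day 3 and 28.8, 30.7 and 40.9 CPM on day 4. The lowest level, on day 2, was 27.4-fold under day 0 (log2 change −4.77 ± 0.30, adjusted p = 5.4e-09). On day 4 it was 4.75-fold under day 0 (log2 −2.25 ± 0.26, adjusted p = 3.7e-06). With day 1 in place of day 0 as the reference, an alternative chosen after seeing the data, its day 4 change was 0.57 on the log2 scale (adjusted p = 0.0722).

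In counts, 4 of the 8 genes rose and 2 fell on day 1 (46.8% of all genes tested passed in either direction), 4 rose and 1 fell on day 2 (55.9%), and 5 rose and 2 fell on day 3 (56%) and on day 4 (59.5%). With so many of all genes called, the number of calls is not a result about these 8. The median log2 change on day 4 was 3.18 over the 8 genes and −0.04 over all genes tested.

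The deletion lines were compared between day 0 and day 4. In TXΔXicB6, H19 held 7.63, 5.29 and 5.61 CPM on day 0 and 397.6, 517.5 and 831.3 CPM on day 4, a 94.4-fold rise (log2 6.56 ± 0.57, adjusted p = 1.9e-09). In TXΔXicCast it held 28.5, 16.1 and 20.7 CPM on day 0 and 840.4, 1273 and 1503 CPM on day 4, a 55.8-fold rise (log2 5.80 ± 0.54, adjusted p = 4.5e-09). Day 0 of TXΔXicCast lay above all day 0 libraries of TXΔXicB6, and these are the libraries made from degraded RNA. Of 6 fibroblast markers, 4 were under 1 CPM on day 0 in each deletion line. The sum of the list was 55.4 CPM in the degraded libraries, of which 40.2 were Col1a2, against 31.3 CPM in TXΔXicB6. With day 1 as the reference, which leaves these libraries out of the contrast, H19 was still higher on day 4 in TXΔXicCast (log2 change 5.53, adjusted p = 1.2e-08), as were Igf2 (2.99), Phlda2 (1.13) and Airn (2.67), and the changes of Plagl1 (0.05), Igf2r (−0.14) and Cdkn1c (−0.20) did not pass. Plagl1 fell from 253.3, 283.3 and 368.2 CPM to 35.6, 41.7 and 42.0 CPM in TXΔXicB6 and from 275.7, 270.1 and 259 CPM to 45.64, 47.75 and 80.25 CPM in TXΔXicCast. In each deletion line 5 of the 8 genes rose and 2, Igf2r and Plagl1, fell between day 0 and day 4, where 59.4% of all genes passed in TXΔXicB6 and 69.5% in TXΔXicCast. Kcnq1ot1 was again the exception (adjusted p = 0.717 and 0.189). Its log2 change in TXΔXicCast was 0.54. With the replicate number as a block this change was 0.55 with an adjusted p of 0.0461. With no filter on low counts it was 0.52 with an adjusted p of 0.00012, a lower p without a larger change. Under the other alternatives it did not pass.

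**Figure D2:**
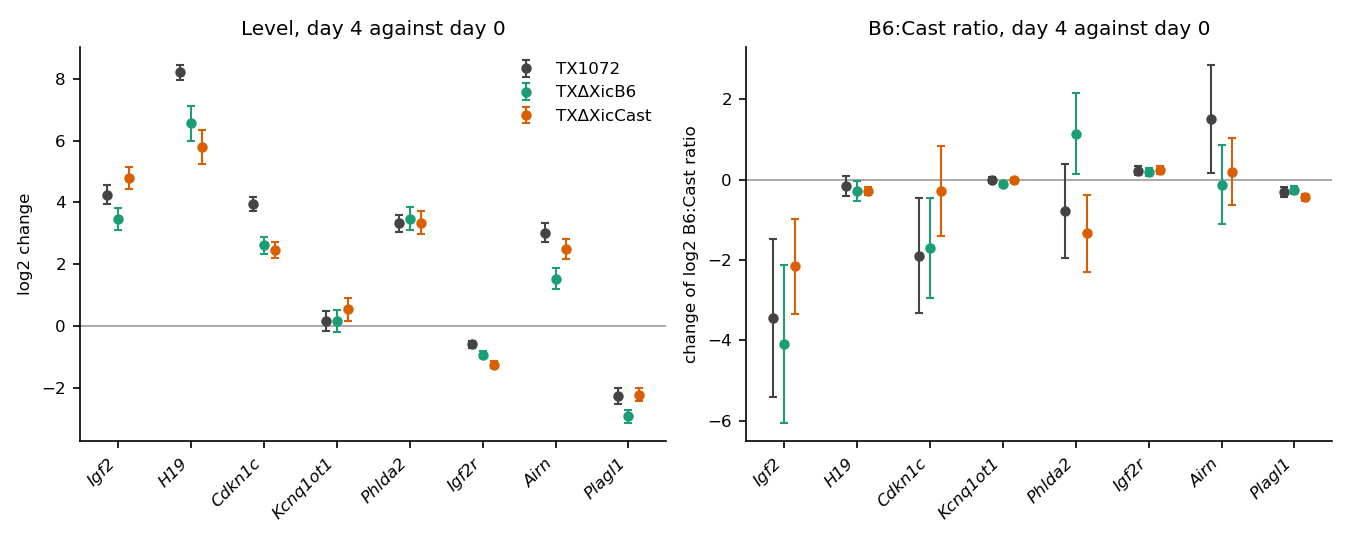
Fitted change between day 0 and day 4 of the level (left, log2) and of the B6:Cast ratio (right, log2) for the 8 genes in the 3 lines. Points are the fitted values and bars 1 standard error; H19 has the largest rise in each line (8.21, 6.56 and 5.80), Plagl1 the largest fall, and the ratio changes of Igf2, Cdkn1c, Phlda2 and Airn have wide errors because day 0 held few allele-specific counts.

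Set against each other on day 4, the deletion lines differed for 2 of the 8 genes, where 5.86% of all genes passed. Igf2 held 15.6, 25.7 and 11.8 CPM in TXΔXicB6 and 39.96, 49.11 and 96.48 CPM in TXΔXicCast, with no overlap, and was 3.49-fold higher in TXΔXicCast (log2 1.80 ± 0.30, adjusted p = 0.00054). Airn was 2-fold higher in TXΔXicCast (log2 1 ± 0.29, adjusted p = 0.0392), with 1.57, 2.96 and 2.13 CPM against 3.61, 4.24 and 5.46 CPM. The Airn call was lost without any 1 of the 3 replicates (adjusted p between 0.108 and 0.232). H19 was 2.07-fold higher in TXΔXicCast (log2 1.05 ± 0.44), which did not pass (adjusted p = 0.19). It passed with the replicate number as a block (adjusted p = 0.0249), with no filter on low counts (2.8e-14) and without replicate 3 (0.0498). Plagl1 was 1.46-fold higher (log2 0.54 ± 0.20), with an adjusted p of 0.116, and passed with the block (0.0488) and with no filter (0.00143). Neither gene passed under any other alternative. With no filter the log2 changes were 1.06 for H19 and 0.55 for Plagl1, so the lower adjusted p came without a larger change. The block moved the number of all genes called from 1165 to 1790. Markers of other cell types differed too. Of 6 primitive endoderm markers 2 were higher in TXΔXicCast, led by Dab2 with a list sum of 50.4 against 32.5 CPM. Of 6 fibroblast markers 2 were higher, Col1a1 and Col1a2, with a list sum of 19.3 against 10.8 CPM. The sum of 5 trophoblast markers overlapped, with 75.2 CPM (62.75 to 93.48) in TXΔXicCast against 83.7 CPM (71.89 to 105) in TXΔXicB6. The sum of the 5 formative markers was lower in TXΔXicCast, 1001 CPM (693.5 to 1215) against 1509 CPM (1270 to 1701), with no overlap, and Dnmt3b and Otx2 were the 2 of them that passed, while the naive sums were 440.3 and 454.9 CPM. The part of these markers in the Igf2 and Airn differences was not tested. Each deletion line is 1 clone, so a difference between the deletions and one between the clones cannot be told apart. The change from day 0 to day 4 was itself not shown to differ between the deletion lines for any of the 8 genes. By edgeR's test of the difference 0 were called and 4 had an unadjusted p under 0.05. The lowest adjusted p was 0.0699, for Igf2. Of 19885 genes, 1599 differed upwards and 1377 downwards. This difference was fitted without the replicate block, and no alternative or other tool was run on it. Whether the block would change these calls was not tested.

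The alleles were then compared. A gene was called monoallelic in a line and day if over 90% of its allele-specific counts came from the same allele in each of the 3 libraries, biallelic if the minor allele gave at least 20% in each, and skewed otherwise, with at least 10 allele-specific counts asked of each library. Of the 15 combinations of line and day, too few counts left Airn unclassed in 11, Igf2 in 6, Phlda2 in 4 and Cdkn1c in 3, and the other 4 genes were classed in all 15. None of the 8 was monoallelic in a combination in which it was classed. On day 4 all 8 were biallelic in TX1072, in TXΔXicB6 and in TXΔXicCast. That is the usual state of autosomal genes here. Of 11658 autosomal genes with enough counts, 93.8% were biallelic on day 4 in TX1072, with 94% in TXΔXicB6 and 94.2% in TXΔXicCast. In TX1072, 1.05% were monoallelic. The day 4 classes of TX1072 depend on the limits. With a minimum of 20 counts Igf2 (lowest library 19) and Cdkn1c (12) would not be classed. With a limit of 30% for biallelic, Igf2 (lowest library 28.6% B6), Airn (27.3%) and Phlda2 (highest 75.9%) would be skewed. On day 0, 4 of the 8 (H19, Kcnq1ot1, Igf2r and Plagl1) had enough counts in TX1072 and all 4 were biallelic, as were 89.5% of autosomal genes.

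**Figure D3:**
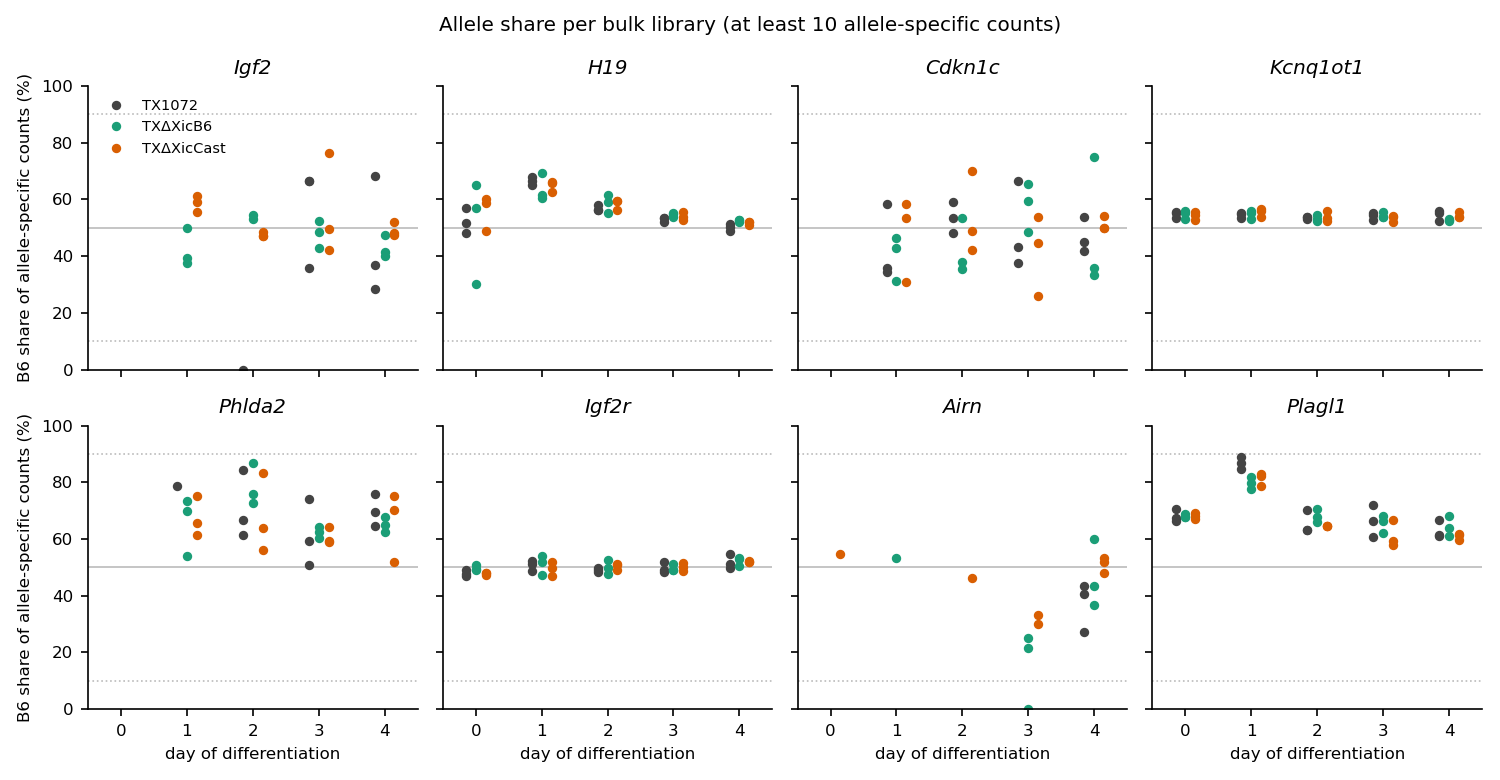
B6 share of the allele-specific counts (%) of the 8 genes against the day of differentiation. Each point is 1 bulk library with at least 10 allele-specific counts, the solid line marks 50% and the dotted lines 10 and 90%; Kcnq1ot1 and Igf2r stay near 50% in every library, H19 and Plagl1 rise to a maximum on day 1, and the scattered points of Igf2, Cdkn1c and Airn rest on few counts.

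H19 and Igf2, the pair that shares enhancers and is known for opposite imprints, were each read from both alleles. On day 4 the B6 share of H19 was 50.2, 49.0 and 51.3% in the 3 TX1072 libraries, on 10924 to 12998 allele-specific counts each. It was 52.53% ± 0.436 (SD, n = 3) in TXΔXicB6 and 51.78% ± 0.634 in TXΔXicCast. In the allele fit, where the alleles of all autosomal genes are tested within the library, the share did not differ from an even one in TX1072 (log2 B6:Cast 0.01 ± 0.04, adjusted p = 0.871). It did in the deletion lines, by 1.11-fold in TXΔXicB6 (adjusted p = 0.00092) and by 1.07-fold in TXΔXicCast (adjusted p = 0.0181), and with each allele scaled to its own total the latter was lost (adjusted p = 0.305), as it was without replicate 1 (0.121) or without replicate 2 (0.129). Igf2 was thin on day 4 in TX1072, with a B6 share of 36.8, 28.6 and 68.4% on 19 to 38 counts. In TXΔXicCast it was 47.4, 48.3 and 51.9% on 149 to 395 counts, and in TXΔXicB6 47.6, 41.6 and 40% on 35 to 161 counts. In 1 TX1072 library of day 2, all 10 allele-specific Igf2 counts were from Cast; the other libraries of that day had 42.9% and 75% B6 on 7 and 8 counts.

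The share of H19 was not constant in time. In TX1072 it was 66.7, 67.9 and 65.1% B6 on day 1, above every library of days 2 (56.8% ± 0.939), 3 (52.96% ± 0.709) and 4 (50.17% ± 1.151). In the deletion lines the day 1 share was 63.87% ± 4.889 in TXΔXicB6 and 64.85% ± 1.86 in TXΔXicCast, again the highest mean of the 5 days. On day 0 the share rested on 29 to 42 counts a library in TX1072 and was 52.3% ± 4.48. The change of the H19 ratio from day 0 to day 4 did not pass in TX1072 (adjusted p = 0.817) or TXΔXicB6 (0.607), and in TXΔXicCast its adjusted p was 0.0505 (log2 change −0.28 ± 0.11) and 0.0315 with the replicate number as a block, 0.0347 with each allele's own total, 0.0398 with a minimum of 50 counts and 0.00537 without replicate 1. Day 1 was not tested against the other days.

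Igf2r and Airn, whose antisense pair is the textbook case of an RNA that silences its partner, were also read from both alleles. Igf2r had a mean B6 share between 47.85 and 52.35% over the 15 combinations of line and day, each library holding at least 191 allele-specific counts. On day 4 it was 51.77% ± 2.53 in TX1072, 52.35% ± 1.51 in TXΔXicB6 and 52% ± 0.0778 in TXΔXicCast, and in none of these did it pass the test. In TXΔXicCast the ratio moved by 0.24 ± 0.09 on the log2 scale from day 0 to day 4 (adjusted p = 0.0354), a call that was lost without any 1 of the replicates (adjusted p between 0.133 and 0.151) and with each allele's own total (0.0537). On day 0 of that line the share was 47.86% ± 0.361, with an adjusted p of 0.0554, which was 0.0461 with the replicate block and 0.0443 with a minimum of 50 counts. Airn reached 10 allele-specific counts a library on day 4 alone in TX1072, with 27.3, 40.7 and 43.3% B6 on 22 to 30 counts. In TXΔXicB6 it was 43.5, 36.7 and 60% on day 4, and in TXΔXicCast 51.9, 53.3 and 47.8%. On day 3 of TXΔXicB6 it was skewed to Cast, with 25, 21.4 and 0% B6 on 12, 14 and 10 counts.

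In the Kcnq1 cluster, Kcnq1ot1 gave the most precise shares. Its mean B6 share lay between 52.78 and 55.44% in the 15 combinations of line and day, on 279 to 9319 allele-specific counts a library. The excess of B6 was small and passed the test on day 0 and on day 4 in each line (on day 4 in TX1072, 1.2-fold, log2 0.27 ± 0.05, adjusted p = 5.3e-07). Phlda2 leaned more to B6, by 2.3-fold in TX1072 on day 4 (adjusted p = 0.0105), with library shares of 69.6, 75.9 and 64.7% on 23 to 34 counts. It was at 65.01% ± 2.628 in TXΔXicB6 (adjusted p = 0.0154) and 65.65% ± 12.3 in TXΔXicCast (adjusted p = 0.012). The 3 Phlda2 calls of day 4 were each lost without replicate 2 (adjusted p = 0.118 in TX1072, 0.124 in TXΔXicB6 and 0.092 in TXΔXicCast), and those of the deletion lines also without replicate 1 (0.105 and 0.285). On day 2 Phlda2 was classed as skewed in all 3 lines, in each because of 1 library over 80% B6: the shares were 61.5, 66.7 and 84.2% in TX1072, 72.7, 86.7 and 76% in TXΔXicB6 and 63.8, 83.3 and 56.3% in TXΔXicCast, on 15 to 64 counts. Cdkn1c was at 46.78% ± 6.32 in TX1072, 48.02% ± 23.4 in TXΔXicB6 and 51.35% ± 2.341 in TXΔXicCast on day 4, on 12 to 37 counts a library, and did not pass.

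Plagl1, the most abundant of the 8 after Igf2r per length on day 0 in TX1072, also leaned to B6. On day 0 its B6 share was 66.4, 67.3 and 70.6% in TX1072, 68.16% ± 0.677 in TXΔXicB6 and 68.08% ± 1.154 in TXΔXicCast, on 470 to 6142 counts a library. The B6 allele exceeded the Cast allele by 2.14-fold in TX1072 (log2 1.10 ± 0.06, adjusted p = 7.2e-38). On day 1, while its level fell, the B6 share was 86.7, 89.1 and 84.5% in TX1072, above every other TX1072 library, and 79.72% ± 2.247 and 81.18% ± 2.238 in TXΔXicB6 and TXΔXicCast. These are the 3 combinations in which it was skewed rather than biallelic. By day 4 it was 63.1% ± 3.165, 64.33% ± 3.587 and 60.92% ± 1.179 in the 3 lines. The ratio was lower on day 4 than on day 0 in TXΔXicCast (log2 change −0.44 ± 0.08, adjusted p = 7.6e-06). In TX1072 (−0.30 ± 0.13, adjusted p = 0.0984) and TXΔXicB6 (−0.25 ± 0.10, adjusted p = 0.0673, with the replicate block 0.0499 and without replicate 3 0.0345) it did not pass. The day 0 libraries of TXΔXicCast came from degraded RNA and were fragmented differently. In the ratio shifts of that line this cannot be told apart from an effect of day 0. Day 1 as the reference was not run on ratios.

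By the allele fit, 2 of the 8 genes differed from an even ratio on day 0 in TX1072 (42.4% of all autosomal genes tested), 2 in TXΔXicB6 (34.5%) and 4 in TXΔXicCast (42.7%), each towards B6. On day 4 it was 3 in TX1072 (34.2%), 4 in TXΔXicB6 (35.7%) and 4 in TXΔXicCast (34.8%), again each towards B6. These counts lie on both sides of the shares of all genes, and with 8 genes they are not a result about these 8. The median library had a B6 share over autosomal genes of 51.21% in TX1072, 50.82% in TXΔXicB6 and 50.92% in TXΔXicCast. The ratio changed between day 0 and day 4 for 0 of the 8 in TX1072 (14.9% of all genes) and in TXΔXicB6 (14%), with 2 at an unadjusted p under 0.05 in each, and for 2 in TXΔXicCast (19.5%), by edgeR's test; no other tool was run on alleles. Between the deletion lines on day 4 the ratio differed for 0 of the 8, also at an unadjusted p under 0.05, with 1.08% of all genes called. On day 0, Igf2, Cdkn1c, Phlda2 and Airn had 0 to 3 allele-specific counts a library in TX1072, too few to place their ratio, and 0 to 9 in TXΔXicB6. The Phlda2 call of day 0 in TXΔXicCast rests on 4 to 6 counts a library and was lost without replicate 2 (adjusted p = 0.171) or 3 (0.117), and the H19 call of the same group (log2 B6:Cast 0.38 ± 0.10, adjusted p = 0.00089) was lost without replicate 3 (0.27, adjusted p = 0.157). Igf2r passed towards Cast with each allele scaled to its own total, on day 0 of TX1072 (adjusted p = 0.0213) and of TXΔXicCast (0.0104). Without the 3 TXΔXicB6 libraries of few allele-specific counts, the calls of that line for the 8 genes were as before.

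Single TX1072 cells were then examined, since a bulk share near 50% can come from cells with both alleles active or from a mixture of cells with 1 active allele each. Of 2000 capture sites, 1472 cells were retained, between 257 and 341 a day, with a median of 132800 unique molecular identifiers (UMIs), which count single mRNA molecules by their 3′ end. The median depth was 138600, 124700, 125600, 130400 and 171200 UMIs a cell on days 0 to 4. Per the labels, the libraries of day 1 alone were also sequenced in a rapid run. The allele-specific share was 12.12% on day 1 and 14.12 to 14.57% on the other days. The part of the rapid run in the values of day 1 was not tested. H19 was found in 0.722% of cells on day 0 (exact Clopper-Pearson 95% interval 0.0876 to 2.58%, which like the others covers counting error only), 16.9% on day 1, 33.7% on day 2, 58% on day 3 and 75% on day 4 (69.4 to 80%). With each cell thinned to 40000 UMIs, which kept all retained cells, the shares were 0.361, 12.62, 21.99, 45.91 and 55.15%. Its UMIs were concentrated, the tenth of cells with the most holding 79.9% of them on day 4, when the median cell had 3 and the highest 840.

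**Figure D4:**
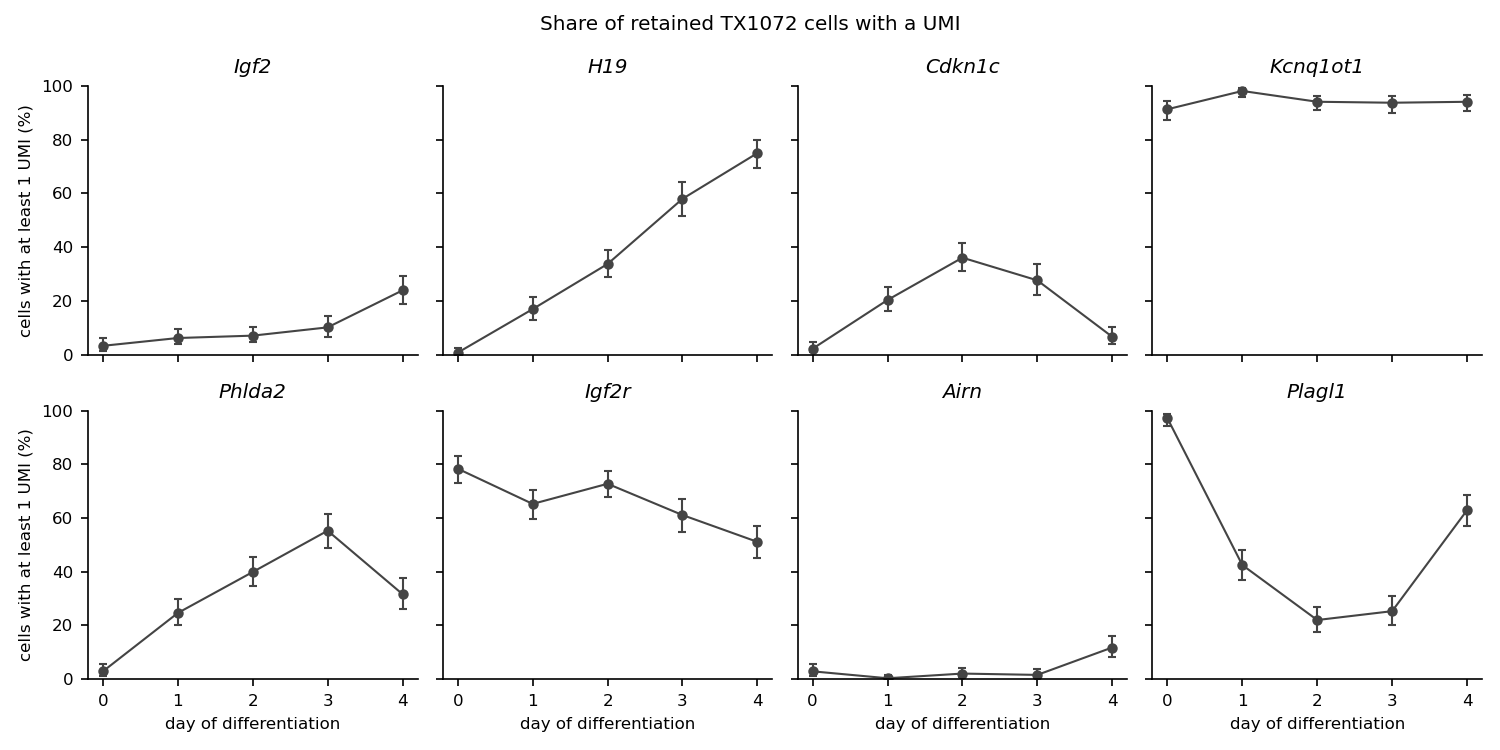
Share of retained TX1072 cells with at least 1 UMI of each of the 8 genes (%), against the day of differentiation. Bars are exact Clopper-Pearson 95% intervals over 257 to 341 cells of 1 culture a day; H19 climbs to 75% on day 4, Kcnq1ot1 stays over 91% and Plagl1 dips to 22% on day 2.

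The share of cells with the other genes is given next. Kcnq1ot1 was found in 91.3 to 98.2% of cells, and Plagl1 in 97.1% on day 0, 22% on day 2 and 62.9% on day 4. Igf2r went from 78.3% of cells on day 0 to 51.1% on day 4. Cdkn1c peaked on day 2 with 36.1% and was found in 6.62% on day 4, and Phlda2 peaked on day 3 with 55.25%. Igf2 was found in 23.9% of cells on day 4, when 1 cell held 334 of 1289 UMIs, and Airn in 11.8%. The 54 sites noted as empty served as background, with 6016 to 13760 UMIs in the median by day. In them H19 was found in 35.2% of sites, Kcnq1ot1 in 61.1%, Plagl1 in 31.5%, Igf2r in 29.6%, Phlda2 in 9.26%, Igf2 and Cdkn1c in 5.56% each and Airn in 0 of 54, for which the exact interval reaches 6.6%. The shares of H19 on days 0 to 2, Plagl1 on days 2 and 3, and Igf2, Cdkn1c and Phlda2 on day 0 were below this background. The intervals of Igf2 on days 1 and 2 (3.80 to 9.34% and 4.56 to 10.3%) and of Cdkn1c on day 4 (3.97 to 10.3%) took it in, so these shares are not read as expression. The empty sites were pooled over the days, with 10, 7, 4, 14 and 19 of them on days 0 to 4, so the background of a single day was not measured. The H19 level in them (283.2 CPM) was close to that of the retained cells of day 4 (239.4 CPM). For Kcnq1ot1 the levels were 232.8 CPM in empty sites and 226.6 CPM in cells of day 4, and for Plagl1 77.08 and 60.55 CPM. The part of free RNA in the cells positive for H19, Kcnq1ot1 or Plagl1, and in their allelic classes below, was not tested.

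Within cells, both alleles of H19 were often seen together. Cells with over 5 allele-specific UMIs were classed as monoallelic if all came from 1 allele, as biallelic if each gave at least 20% and as skewed otherwise. On day 4, 37 of 78 such cells were biallelic for H19 (47.4%, 36.01 to 59.07%), 20 were skewed, 13 had only B6 and 8 only Cast UMIs. On day 1, 1 of 16 was biallelic, while 9 had only B6 and 5 only Cast. With the cells of all days pooled, 15.8% of 57 cells were biallelic at 6 to 9 UMIs, 35.3% of 51 at 10 to 19 and 63.9% of 72 at 20 or more. Depth and day were not separated in these counts, and the part of depth in the difference between day 1 and day 4 was not tested. Of the 72 best covered cells 4 had only B6 and 2 only Cast UMIs.

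**Figure D5:**
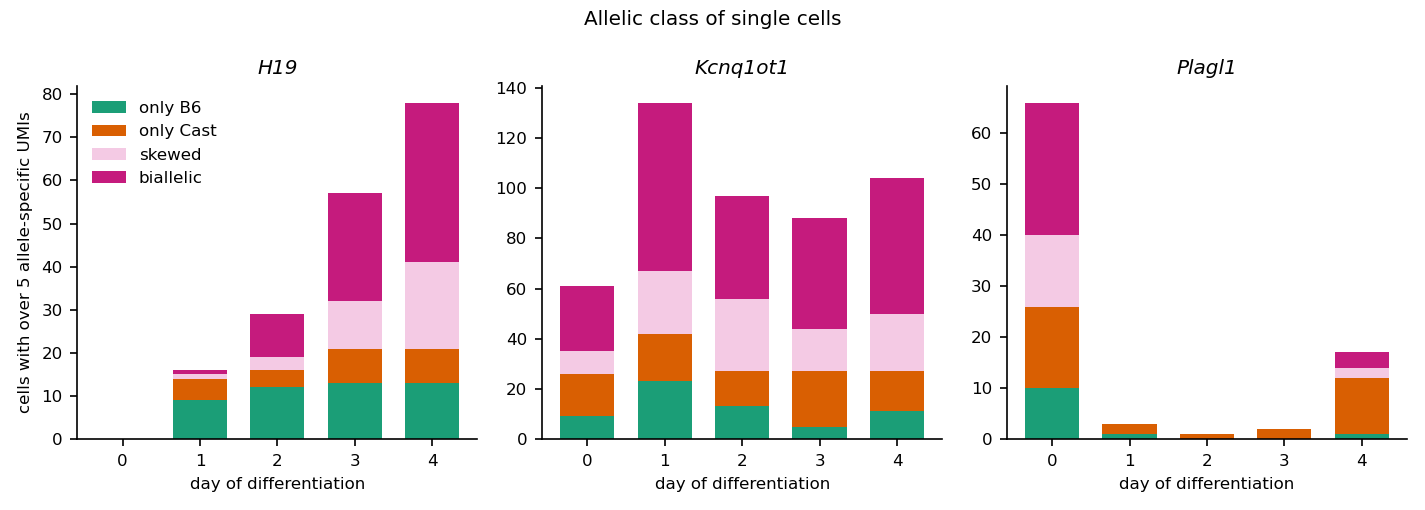
Number of TX1072 cells with over 5 allele-specific UMIs by allelic class, for H19, Kcnq1ot1 and Plagl1 against the day of differentiation. Stacked bars count cells with only B6, only Cast, skewed or biallelic UMIs; on day 4, 37 of 78 cells were biallelic for H19 and 54 of 104 for Kcnq1ot1, and Plagl1 has few classed cells after day 0.

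Kcnq1ot1 was biallelic in 26 of 61 cells on day 0 (42.6%, 30.04 to 55.94%) and in 54 of 104 on day 4 (51.9%, 41.9 to 61.8%). On day 0, 9 cells had only B6 and 17 only Cast UMIs, so 42.6% were monoallelic too. On day 4, 11 had only B6 and 16 only Cast UMIs. With the cells of all days pooled, Kcnq1ot1 was biallelic in 44.3% of 228 cells at 6 to 9 UMIs and in 51.7% of 60 cells at 20 or more. Of these 60 cells 5 had only B6 and 7 only Cast UMIs. Plagl1 was biallelic in 26 of 66 cells on day 0, 10 having only B6 and 16 only Cast UMIs, and in 3 of 17 on day 4, when 11 had only Cast UMIs. Igf2, Cdkn1c, Phlda2, Igf2r and Airn reached over 5 allele-specific UMIs in 4 cells or fewer on any day, so their cells could not be classed in number.

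The summed allele shares of the cells did not always match bulk RNA. Per the study's methods, bulk replicate 1 of TX1072 was taken from the cell population of the single cells. The shares below are set against the pooled counts of the 3 replicates, and replicate 1 was not compared on its own. H19 was 62.6% B6 on day 1 and 44.3% on day 4 in cells, against 66.7 and 50.2% in the pooled bulk counts. Kcnq1ot1 was 45.5% B6 over all days (exact 95% interval 44.3 to 46.6%), on the other side of 50% from every bulk group. Plagl1 was 46.1% B6 on day 0, 66.3% on day 1 (55 B6 and 28 Cast UMIs) and 33.2% on day 4 in cells. In the pooled bulk counts Plagl1 was at 68.1, 86.7 and 63.4% on these days. In thinned cells H19 was 50% B6 on day 1 (37.2 to 62.8%) and Plagl1 42.3% on day 4 (30.6 to 54.6%). Airn was 17.5% B6, on 20 B6 and 94 Cast UMIs, but this share was not stable. A single cell held 69 of its 118 UMIs of day 0, and with all capture sites its UMIs of day 3 went from 2 B6 and 1 Cast to 22 B6 and 2 Cast and those of day 4 from 9 B6 and 50 Cast to 23 B6 and 63 Cast. In thinned cells 3 B6 and 7 Cast UMIs were left on day 0 and 3 B6 and 4 Cast on day 4. Its unspliced UMIs, 95.9% of the total in the spliced and unspliced tables, were 48.2% B6, on 828 B6 and 890 Cast UMIs. The unspliced UMIs of Igf2r were 68.6% B6, on 48 B6 and 22 Cast UMIs (56.4 to 79.2%), while its spliced UMIs were 49 B6 and 49 Cast, and those of Plagl1 were 49.9% B6, on 236 and 237 UMIs. The single-cell protocol counts 3′ ends, so per the study it can use only part of the SNPs. Whether this moves the shares was not tested, and the assays were not tested against each other.

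The surroundings of the 8 genes were read from lists of neighbours and partners, whose calls are to be read against the 59.5% of all genes that passed between day 0 and day 4 in TX1072, with a median log2 change of −0.04. Beside H19 and Igf2, 4 of 4 neighbours tested rose between day 0 and day 4 in TX1072, among them Lsp1 (log2 change 3.92 ± 0.38) and Mrpl23 (0.46 ± 0.14), with a median log2 change of 2.07. Ins2, the insulin gene next to Igf2, had 0 counts in each of those libraries. In the Kcnq1 cluster 4 of 12 rose and 3 fell (median −0.07), with Osbpl5 at 5.53 ± 0.26 and Ascl2, a trophoblast regulator, at 2.61 ± 0.24. Kcnq1 itself held 0 to 5 counts a library on days 0 and 4. Around Igf2r 3 of 6 rose and 1 fell (median 0.14). Among those that rose was Slc22a3, an organic cation transporter imprinted in the placenta, with a fitted change of 7.01 ± 0.76. Around Plagl1 0 of 3 rose and 2 fell, Ltv1 (−0.59 ± 0.13) and Sf3b5 (−0.34 ± 0.14). No neighbour that could be classed was monoallelic on day 0 or day 4 in any line, but many could not be classed for lack of counts: by line and day, 3 to 5 of the 5 listed beside H19 and Igf2, 4 to 7 of 13 in the Kcnq1 cluster, 4 to 5 of 9 around Igf2r and 1 of 4 around Plagl1.

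Of the genes that receive or bind insulin-like growth factors, 6 of 9 tested rose and 0 fell in TX1072 on day 4, a share of calls near that of all genes (59.5%), with a median log2 change of 2.24. Igf1r, the receptor through which Igf2 signals, went from 17.0 ± 1.83 to 80.3 ± 4.46 CPM (SD, n = 3), a log2 change of 2.24 ± 0.17. Irs1, a docking protein below the receptors, changed by 6.08 ± 0.21, and Igfbp3, a binding protein, by 3.72 ± 0.21. The counts were 6 of 9 in TXΔXicB6 and in TXΔXicCast as well, where 59.4% and 69.5% of all genes passed. Of 8 genes that maintain imprints, 4 fell and 0 rose in TX1072, again a share of calls near that of all genes, with a median log2 change of −0.54. In TXΔXicB6 5 fell and 1 rose, and in TXΔXicCast 6 fell and 0 rose. Zfp57, a zinc finger protein that protects imprints, went from 316.8 ± 33.2 to 43 ± 4.19 CPM (log2 −2.88 ± 0.13), Uhrf1, which brings Dnmt1 to replicating DNA, changed by −1.59 ± 0.12, Dppa3 by −1.39 ± 0.17 and Trim28 by −0.81 ± 0.13. Ctcf, which insulates Igf2 from its enhancers on the unmethylated copy, was at −0.09 ± 0.11 and did not pass.

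A list of 10 other imprinted genes, chosen after values of the 8 were seen, gives a yardstick. In TX1072, 9 of the 10 rose and 1, Zrsr1, fell by day 4, with a median log2 change of 2.51, where 59.5% of all genes passed. Peg3 went from 171.6 ± 8.42 to 1906 ± 110.5 CPM and Peg10 from 76.7 ± 24.5 to 1435 ± 194.3 CPM. On day 0 and day 4, 1 of the 10 had too few allele-specific counts in each line, and none of the others was monoallelic. Meg3 and Rian, maternally expressed noncoding RNAs of another cluster, were skewed to Cast on day 0 of TX1072 with pooled B6 shares of 12.5 and 12.8%, and biallelic on day 4 with 44 and 44.9%. None of the 8 genes had a comparable share on day 0 where it could be classed, the pooled shares of H19, Kcnq1ot1, Igf2r and Plagl1 lying between 47.9 and 68.1%.

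Genes with the most similar profile were sought among 11863 genes over the 15 TX1072 libraries, by Pearson's correlation of log2 CPM, as a description with no test, since all genes share the libraries and the course of days. H19 was most like Gprc5c (r = 0.995, and 0.903 over the 30 libraries of the deletion lines). Igf2 was most like Ccdc120 (0.980 and 0.925), Cdkn1c like Epha8 (0.990 and 0.940), and Phlda2 like Pou3f1 (0.980 and 0.966), a formative marker. Plagl1 was most like Slc44a1 (0.982 and 0.937). Airn was most like Rdh10 (0.95 and 0.587) and Igf2r like Crybg2 (0.909 and 0.658). Each of these genes was picked for its value in TX1072, and all 8 pairs were lower in the deletion lines. Kcnq1ot1 had the lowest of the 8 in TX1072 (A930004J17Rik, 0.860), with 0.799 in the deletion lines. Among the 8 themselves, Igf2 and H19 (0.917 and 0.862) and Cdkn1c and Phlda2 (0.917 and 0.886) ran together, and Cdkn1c and Plagl1 ran opposite (−0.892 and −0.961).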

How the data were processed

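Bulk RNA of 45 libraries and 1472 retained single cells of TX1072 were used. The authors aligned reads with STAR 2.5.2b to mm10 with strain differences masked, assigned them to alleles with SNPsplit and deposited total, B6 and Cast counts per gene, which featureCounts gave for bulk RNA; the deposited single-cell counts are UMIs. The strand setting of the bulk counting was not given in the sources used here, and the single-cell protocol was specific to the strand. Bulk totals ranged from 16906263 to 57920260 counts.

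Levels were tested with edgeR 4.0.16 (R 4.3.3; quasi-likelihood test, TMM factors from autosomal genes, filterByExpr, threshold 0.05), TX1072 apart from the deletion lines, which another kit had made. Allele ratios were tested on B6 and Cast counts with a term per library. Each replicate was differentiated on a different day, per the study's reporting summary, so replicate numbers mark a shared batch: in TX1072, same-numbered libraries had a median correlation of deviations of 0.113 (30 pairs) and others of −0.056 (60); in the deletion lines 0.121 (135) and −0.068 (270). Alternatives were DESeq2 1.42.0, its size factors, no filter, own allele totals, a minimum of 50 counts, the replicate block and each replicate left out. Python 3.11.15 with pandas 2.3.3 and scipy 1.17.1 gave shares with exact 95% intervals, for counting error only. The fits were tested on simulated data with 200 changed genes each. They recovered 92.5% of the level changes in each table, and 80.5% of the ratio changes in TX1072 and 75.5% in the deletion lines. Of the calls, 2.58 to 3.14% were false. The ratio changes were set in genes with a mean over 50 allele-specific counts, so recovery at fewer counts was not measured.

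Named genes are the 8, the lists and, for each of the 8, the genes with the most similar profile. The 8 genes and the lists were chosen with earlier results of these data known. Sites of strain difference are from the deposited list, and gene models from GENCODE vM21.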

Additional observations from a re-analysis of the deposited data

How the results depend on the processing

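Of 887 values recomputed for the 8 genes under the alternatives, 805 kept their direction and their side of the threshold, 39 changed direction, 24 lost a call and 19 gained one. No value that changed direction passed the test in its new direction. With the replicate number as a block, 129 of 136 values kept their call, and the 7 that gained one are given beside their results above; the number of all genes that differed in level between the deletion lines on day 4 went from 1165 to 1790 with the block, and to between 343 and 466 with 1 replicate left out. The number of genes whose ratio changed between day 0 and day 4 in TXΔXicB6 went from 2175 to between 1282 and 1783 with 1 replicate left out. The 7 skewed combinations of gene, line and day became 21 with a limit of 30% for biallelic, 3 with a minimum of 20 counts and 11 with a minimum of 5. The share of biallelic Kcnq1ot1 cells on day 4 was 61.9% in thinned cells.

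With day 1 as the reference, chosen after seeing the data, the log2 change to day 4 became −0.19 for Kcnq1ot1 and 0.57 for Plagl1 in TX1072, −0.03 for Cdkn1c in TXΔXicB6, and −0.20 for Cdkn1c and 0.05 for Plagl1 in TXΔXicCast. With each allele's own total, the log2 ratio on day 4 became −0.06 for H19 in TX1072 and −0.01 for Airn in TXΔXicCast, and the shift of Kcnq1ot1 in TX1072 became 0.00. Without the 3 TXΔXicB6 libraries of few allele-specific counts, also chosen after seeing the data, Airn on day 0 was at 0.02.

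The other reversals came from leaving out 1 replicate and concern values that did not pass. Level changes ranged from −0.24 to 0.22 for Kcnq1ot1 on day 2 in TX1072, and between the deletion lines from −0.06 to 0.14 for Cdkn1c, −0.01 to 0.14 for Kcnq1ot1 and −0.16 to 0.03 for Igf2r. Log2 ratios in TX1072 ranged from −0.00 to 0.28 for H19 on day 0, and on day 4 from −0.02 to 0.04 for H19 and −1.09 to 0.38 for Igf2. In TXΔXicB6 they ranged from −0.71 to 0.93 for Phlda2 and −1.22 to 0.65 for Airn on day 0, and from −0.91 to 0.16 for Cdkn1c and −0.62 to 0.08 for Airn on day 4. In TXΔXicCast they ranged from −0.00 to 2.35 for Igf2 and −0.50 to 1.33 for Cdkn1c on day 0, and from −0.13 to 0.03 for Igf2, −0.00 to 0.13 for Cdkn1c and −0.00 to 0.14 for Airn on day 4. Shifts of the ratio ranged in TX1072 from −0.27 to 0.04 for H19, −0.08 to 0.08 for Kcnq1ot1 and −2.87 to 0.35 for Phlda2, in TXΔXicB6 from −0.10 to 1.67 for Phlda2 and −1.26 to 1.30 for Airn, and in TXΔXicCast from −1.21 to 0.50 for Cdkn1c and −0.07 to 0.05 for Kcnq1ot1. Between the deletion lines they ranged from −0.16 to 1.04 for Cdkn1c, −0.17 to 0.37 for Phlda2 and −0.08 to 0.76 for Airn. The causes were not tested. Few allele-specific counts limit Igf2, Cdkn1c, Phlda2 and Airn, on day 0 above all. The single cells are 1 culture a day, and each deletion line is 1 clone.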
